A study of Lathyrus oleraceus subsp. biflorus and Lathyrus oleraceus and [Pisum sativum] subsp. abyssinicum with 117 samples.

Results

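The 100 pea genes described here had high messenger RNA levels in the seed coat and low levels in the embryo, and their average seed coat level changed little from developmental stage D1 to D5. They were chosen by measured values. The level of a gene in a library was its count scaled to a library total of 1000000 (CPM), taken as log2(CPM + 1). Levels were averaged per tissue and stage over 4 accessions, which were JI1794, PI358617, JI92 and Cameor. Genes were kept whose average seed coat level stayed at or under 9 at every stage, averaged at least 2 and varied by under 1.5 between stages. Of the 59594 features counted, 31857 carried identifiers beginning with Psat, and 9600 of these passed the filters. The 100 genes are those with the largest gap between the lowest seed coat level at D1 to D5 and the highest embryo level at D2 to D5. High seed coat level, low embryo level at D2 to D5 and steadiness of the 4-accession average are therefore properties of the choice and not results.

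The series asked how pea domestication changed gene expression in the seed coat. It holds 117 libraries from glasshouse plants without treatment, 67 of seed coat and 50 of embryo. The wild peas (Pisum elatius) were JI64, JI261 and JI1794, PI358617 was an Ethiopian pea (P. abyssinicum), and JI92 (a landrace) and Cameor (a cultivar) were domesticated peas (P. sativum). A main set covered all 6 accessions at up to 5 stages, and a set labelled 2017 added 11 seed coats, from JI64 and JI92. The stage labels give no plant age or days. Each group of 1 tissue, accession, stage and set held 2 libraries, except 3 groups that held 1 library. Whether the 2 libraries came from separate plants is not in the labels, so the p-values below measure the spread between these libraries, which may be technical. Each wild or domesticated class was represented by 2 or 3 single accessions.

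The seed coat is maternal tissue that forms around the embryo. In legumes it unloads sugars and amino acids from the mother plant for the growing embryo, and it later forms a hard outer layer of thick-walled cells. In wild peas the mature coat keeps water out and so holds the seed dormant, a trait that domesticated peas have largely lost. Coats of many pea lines also carry pigments and tannins, which are products of flavonoid synthesis. Bulk libraries mix all cell types of a coat, so that fewer cells of a type and less RNA per cell cannot be told apart.

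No gene names accompany the identifiers in the files, and 0 of the 100 were found among 65673 RefSeq genes of another pea assembly, so no function is given for any gene. By identifier series, 15 of the 100 genes belonged to Psat1g, 7 to Psat2g, 5 to Psat3g, 15 to Psat4g, 16 to Psat5g, 14 to Psat6g, 16 to Psat7g and 12 to Psat0s. Among all Psat genes the shares were 11.5% for Psat1g, 9.9% for Psat2g, 10.8% for Psat3g, 12% for Psat4g, 16.1% for Psat5g, 12.8% for Psat6g, 13.8% for Psat7g and 13.2% for Psat0s. The 100 genes were thus spread over all 8 series. Only Psat6g146040 and Psat6g146080 were next to each other in the order of identifiers. Which genes have near-identical copies is not known here, so the reads of some may have been split with a copy.

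The choice ranked Psat5g197560 first, with a gap of 7.89 on the log2 scale between its lowest seed coat average and its highest embryo average. Psat6g006120 followed with a gap of 7.34, Psat1g065400 with 7.11, Psat5g154600 with 6.69 and Psat0s2197g0040 with 6.56. The last genes inside the list were Psat5g024320 with a gap of 3.94, Psat5g013760 with 3.93 and Psat1g017440 with 3.92. The first genes outside it were Psat5g264120, Psat1g042240 and Psat5g067720, at 3.92 each. The list therefore ends within a continuous range of gaps and has no natural border.

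Psat5g197560 shows what the choice selected. In the 9 Cameor seed coats of the main set it ranged over 487 to 650 CPM with a median of 531 CPM, and in the 10 Cameor embryos it stayed at or under 0.643 CPM. In the 10 seed coats of PI358617 its lowest, median and highest values were 354, 416 and 550 CPM, and in the 10 embryos it reached at most 1.89 CPM. All 4 accessions used by the choice had seed coat values for this gene far above every embryo value.

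Before the accession and stage results, 3 libraries have to be set apart. The 100 genes together took 0.664% to 1.96% of all counts in 64 of the seed coat libraries, with a median of 1.42%. In the 50 embryo libraries they took 0.00485% to 0.0414%, with a median of 0.0126%. The seed coat library of JI64 at D1 replicate 2 held 0.0208%, and those of JI64 at D5 held 0.0251% in replicate 1 and 0.370% in replicate 2. By this share alone, the D1 library and the first D5 library lay within the embryo range, and the other D5 library lay between the tissues. The other JI64 seed coat at D1 held 1.21%. The 3 libraries took no part in the choice and enter none of the tests below except that of wild against domesticated accessions, which is also given without them. Library totals ran from 56.97 to 104.01 M counts, with a median of 66.12 M (M stands for 1000000).

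**Figure D1:**
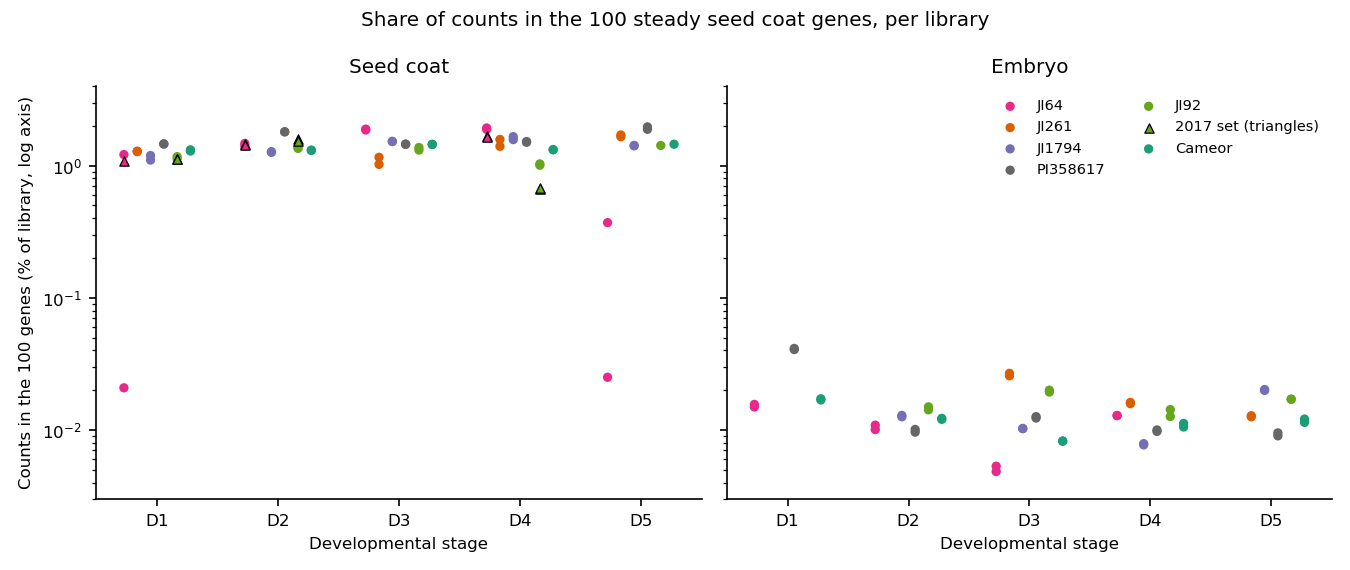
Share of each library's counts that fell in the 100 genes (percent, log axis) by stage, for seed coats (left) and embryos (right). Points are single libraries coloured by accession, and triangles are the 2017 libraries. Apart from 3 JI64 seed coats, every seed coat lies at or above 0.664% and every embryo at or below 0.0414%.

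A list of 50 embryo genes, chosen from the same 4 accessions for the highest embryo levels and a mean difference between tissues of at least 4 on the log2 scale, served to describe embryo RNA in a library. It took 0.00881% to 13.6% of counts in the 64 seed coats, and 0.590% to 64.18% in embryos. The list was chosen from embryos at D2 to D5, and its share in embryos varied with stage. That share ran from 0.590% to 22.8% at D1 and from 19.7% to 63.4% at D5. A difference in the share between stages is therefore no measure of a difference in embryo RNA. In the 3 JI64 seed coats set apart the embryo list took 10.7% at D1, and 1.79% and 11.9% at D5. The first D5 library was thus low in the 100 genes and also below every D5 embryo in the embryo list. Among the 64 seed coats the highest embryo shares were those of JI92 at D4. These libraries held 13.6% and 13.5% in the main set and 11.5% and 11.1% in the 2017 set. The 100 seed coat genes took 1.03% and 1.01% of counts in the same libraries of the main set, and 0.664% and 0.681% in those of the 2017 set, the lowest of the 64 seed coats. The part of embryo RNA in these shares was not tested.

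To compare levels between genes, the deposited FPKM values were used, a unit that corrects for the length of the gene and the depth of the library. Over the 38 seed coat libraries that the choice used, the mean level of the 100 genes ran from 7.67 to 233 FPKM with a median of 36.6 FPKM. The 9600 genes that passed the level and steadiness filters had a median of 7.34 FPKM. Both the level and the gap follow from the choice, since a large gap needs a high seed coat level. Psat6g006120 had the highest mean at 233 FPKM, followed by Psat0s3746g0080 at 190 FPKM, Psat4g005760 at 175 FPKM, Psat1g052520 at 168 FPKM and Psat7g067360 at 141 FPKM. Among single libraries, Psat6g006120 ran from 43.4 to 685 FPKM, while Psat1g052520 ran from 0.0 to 421 FPKM. The wide range of Psat1g052520 lay between accessions, as described below.

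JI261 and JI64 took no part in the choice, so their libraries test whether the tissue difference holds in other accessions. In JI261, 99 of the 100 genes passed the filter on low counts, and all 99 were higher in the 6 seed coats than in the 6 embryos at D3 to D5 (edgeR quasi-likelihood F test with stage as a term, Benjamini-Hochberg adjusted p under 0.05 over all features tested). Over all 21877 features tested, 29.7% were higher in the seed coat. The median log2 fold change of the 99 genes was 7.21, from 2.96 to 12.25, beside a median of -0.20 over all features tested. In JI64 at D2 to D4, all 100 genes passed the filter and all 100 were higher in the 6 seed coats than in the 6 embryos, against 32.9% of 23403 features. The median log2 fold change was 8.62, beside 0.09 over all features. A gene can pass the filter on low counts through its seed coats alone, so the counts were also made without the filter, where they were 99 and 100. These fold changes are relative to TMM scaling, which sets the bulk of features near no change. With scaling by total counts the medians of all features moved to 0.41 in JI261 and 0.98 in JI64, those of the list moved to 7.81 and 9.49, and the calls were 99 and 100.

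Psat7g043520 had the largest change in JI261. Its lowest, median and highest values were 137, 184 and 275 CPM in the 6 seed coats, and 0.0, 0.0 and 0.209 CPM in the 6 embryos (log2 fold change 12.25 ± 0.81 SE, adjusted p = 4.59e-07). Psat5g262840 followed with 223, 259 and 305 CPM in seed coats and 0.0, 0.0565 and 0.322 CPM in embryos (11.29 ± 0.75, adjusted p = 4.68e-07). Psat5g002440 had 38.4, 43.1 and 46.1 CPM in seed coats and 0.0, 0.0 and 0.0484 CPM in embryos (10.99 ± 0.45, adjusted p = 2.28e-08). The groups did not overlap for these genes, which are among 97 of the 99 without overlap. The exceptions were Psat3g067480 and Psat5g013760, which had low seed coat levels in JI261 as described below. Of all features tested, 22.3% were higher in the seed coat without overlap. The gene that could not be tested was Psat1g077840, which had 0 counts in all 6 seed coats and all 6 embryos.

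In JI64 the groups did not overlap for any of the 100 genes, and 33.1% of all features tested were higher in the seed coat without overlap. Psat1g077840 had 24.1, 29.3 and 56.8 CPM as lowest, median and highest in the 6 seed coats and 0 counts in the 6 embryos, so its seed coat level exceeded that of the embryo at least 4768-fold when 3 counts over the embryo libraries are taken as the limit of a count of 0 (adjusted p = 2.87e-06). Psat0s2197g0040 had 129, 298 and 482 CPM in seed coats and 0.0, 0.0 and 0.0654 CPM in embryos (log2 fold change 13.04 ± 0.73 SE, adjusted p = 5.32e-07). Psat4g103960 had 77.1, 134 and 459.5 CPM in seed coats and 0.0, 0.0 and 0.113 CPM in embryos (12.45 ± 0.58, adjusted p = 2.10e-07). The smallest change in JI64 was 4.08 ± 0.43, for Psat6g112280. Setting the 3 genes without embryo counts to their bounds left the median at 8.62. Such limits and intervals cover counting error only, since amplified reads are not independent molecules.

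**Figure D2:**
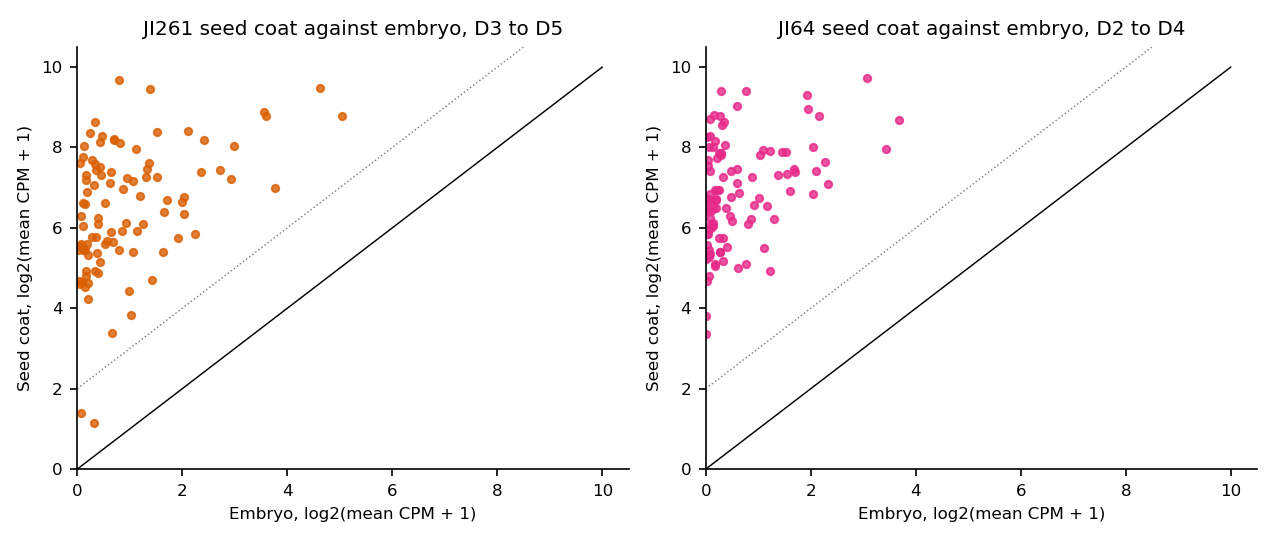
Mean level of each gene of the list in seed coat (vertical) and embryo (horizontal), as log2(mean CPM + 1), in JI261 over D3 to D5 (left, 99 genes tested) and JI64 over D2 to D4 (right, 100 genes). The solid line marks equal levels and the dotted line a difference of 2. All points but 2 in JI261 lie above the dotted line, and those 2 are Psat0s2061g0080 and Psat3g067480.

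The choice did not use embryos at D1, which came from Cameor, PI358617 and JI64. Their share of counts in the 100 genes ran from 0.0149% to 0.0414%, with a median of 0.0170%, and the share at D2 ran from 0.00963% to 0.015% with a median of 0.0121%. The highest values were those of PI358617 at D1, at 0.0406% and 0.0414%. The embryo list took only 0.590% and 0.603% of counts in these 2 libraries, against 19.7% to 22.8% in the other 4 embryo libraries at D1. The seed coats of PI358617 and Cameor at D1 entered the choice, whereas those of JI64 did not. In JI64 the 1 seed coat at D1 that was not set apart exceeded the mean of the 2 embryos at D1 for 100 of the 100 genes, against 71.2% of the 9600 genes, and the medians over the list were 84.2 CPM in that seed coat and 0.637 CPM in the embryos.

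The genes with the highest embryo values at D1 were Psat6g065840, Psat4g168480 and Psat4g005760. Psat4g168480 had 40.0 and 49.8 CPM in PI358617 embryos at D1, against 0.981 and 1.25 CPM at D2. In Cameor embryos it had 6.91 and 8.10 CPM at D1, against 1.73 and 2.13 CPM at D2. In JI64 embryos it had 4.79 and 2.19 CPM at D1, against 0.637 and 0.535 CPM at D2. Over the whole list, the mean at D1 exceeded that at D2 for 86 genes in PI358617, 61 in Cameor and 79 in JI64, against 81.1%, 82.7% and 68.7% of the 9600 genes. The choice required low D2 values in PI358617 and Cameor but not in JI64. Psat6g065840 had 32.4 and 30.3 CPM in PI358617 embryos at D1 and 3.37 CPM in both at D2. Psat4g005760 averaged 26.4 CPM in PI358617 embryos at D1 and 6.53 CPM at D2.

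A test was possible in JI64 embryos, where no library entered the choice. Of the 86 genes that passed the filter, 14 differed between D1 and D2, 9 higher and 5 lower at D1, against 36.6% of 25730 features (4397 features higher and 5024 lower at D1). The list was low in these embryos, with medians of 0.637 CPM at D1 and 0.329 CPM at D2. Its share of calls was not set beside features of like level, and the part of level was not tested. A gene can pass the filter on low counts through 1 stage alone. Without the filter 14 genes also differed, 9 higher and 5 lower. With total-count scaling 21 differed, 16 higher and 5 lower. The count of calls was not stable, with 3 to 9 calls when single libraries were left out and 35 when log2(FPKM + 1) was tested with limma, 31 higher and 4 lower. Psat5g301360 had 1.61 and 1.31 CPM at D1, against 0.180 and 0.141 CPM at D2 (log2 fold change 2.83 ± 0.86 SE, adjusted p = 0.0276). Psat1g129520 had 5.73 and 3.74 CPM at D1, against 1.21 and 1.13 CPM at D2 (1.67 ± 0.43, adjusted p = 0.013). The call of Psat5g301360 was lost whichever of the 4 libraries at D1 and D2 was left out (adjusted p of 0.0644 to 0.148), and that of Psat1g129520 was lost in 3 of these 4 fits (adjusted p of 0.0725 to 0.0938). Psat1g200240 had 0.254 and 0.315 CPM at D1 and 0 counts at D2, which is at least 12.5-fold higher at D1 (adjusted p = 0.0292). With 0 counts at D2 it passed the filter through other stages only, which favours a call in this direction, and it was also called without the filter. This call was lost with replicate number as a term (adjusted p = 0.0847) and when each library was left out (adjusted p of 0.094 to 0.126). Lower at D1 was Psat6g157760, with 0.203 and 0.575 CPM at D1, against 2.70 and 3.29 CPM at D2 (-3.26 ± 0.79, adjusted p = 0.00957, up to 0.0727 when single libraries were left out). Psat0s189g0080 had 1.13 and 1.34 CPM at D1, against 3.22 CPM in both libraries at D2 (-1.72 ± 0.38, adjusted p = 0.00561, up to 0.0589). Psat5g024320 had 0.964 and 0.821 CPM at D1, against 2.34 and 1.97 CPM at D2 (-1.61 ± 0.32, adjusted p = 0.0032), a call that held when each library was left out.

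The steadiness that defined the list belongs to the average of 4 accessions, and it did not hold for all genes in single accessions. The difference between the highest and lowest stage level exceeded 1.5 on the log2(CPM + 1) scale for 58 of the 100 genes in JI1794, 27 in PI358617, 45 in JI92 and 10 in Cameor. Among all 9600 genes that passed the same filters the shares were 37.8% in JI1794, 14.7% in PI358617, 19.9% in JI92 and 4.56% in Cameor. In libraries the choice did not use, the count was 50 of 100 in JI261 (26.4% of the 9600 genes), 15 in JI64 at D2 to D4 (13.4%), 38 in the 2017 set of JI64 (21.4%) and 51 in the 2017 set of JI92 (25.02%). The stages covered were D1 to D5 in the 4 accessions of the choice, D1, D3, D4 and D5 in JI261, and D1, D2 and D4 in the 2017 sets. Each count can therefore be read beside its share of the 9600 genes, but not beside the counts of other accessions. The genes of the list also had higher levels than the 9600. The parts of level and of scaling by library totals in these counts were not tested. Between the 2 libraries of a group, the median absolute difference over the 100 genes ranged over 0.03 to 0.33 on the log2 scale in 30 seed coat groups, with a median of 0.08.

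**Figure D3:**
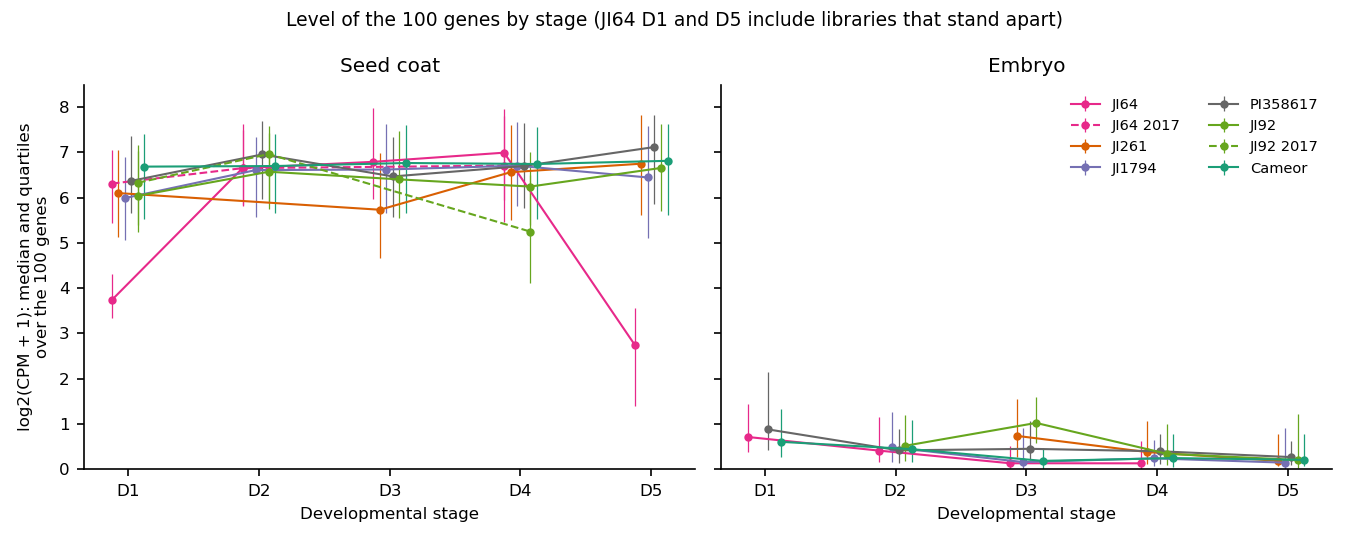
Level of the 100 genes at each stage as log2(CPM + 1), in seed coats (left) and embryos (right). Points are medians over the genes of the mean over the libraries of a group, bars span the quartiles over genes, and dashed lines are the 2017 set. JI64 at D1 and D5 includes the 3 libraries set apart. Outside JI64 at D1 and D5, seed coat medians lie between 5.25 and 7.12 and embryo medians between 0.127 and 1.02.

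In JI261, 75 of the 99 genes tested differed between the seed coats of D5 and D1, of which 59 were higher and 16 lower at D5 (of 25494 features 42.0% differed, 20% higher and 22.0% lower). Among features with a mean of at least 20 CPM, 73.3% differed, beside 70 of the 93 genes of the list at that level, so the share of the list was near that of other genes of like level. Here and in the comparisons below, the split by direction is given beside all features only, and not beside genes of like level. The embryo list took 7.37% and 7.12% of counts in the seed coats at D5, against 0.03325% and 0.03404% at D1, and its part in the result was not tested. Psat0s2197g0040 had 5.75 and 7.18 CPM at D1, 41.0 and 22.1 CPM at D3, 82.7 and 62.3 CPM at D4, and 135 and 125 CPM at D5. It climbed over the stages without overlap, with a log2 fold change of D5 over D1 of 4.55 ± 0.30 SE (adjusted p = 1.27e-05). Psat1g089880 had 93.4 and 92.7 CPM at D5, against 6.23 and 6.29 CPM at D1 (4.11 ± 0.34, adjusted p = 4.19e-05). Psat5g013760 had 20.9 and 22.8 CPM at D5, against 1.21 and 1.59 CPM at D1 (4.18 ± 0.66, adjusted p = 0.00125).

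Other genes fell in JI261. Psat0s2417g0120 had 1027 and 980 CPM at D1, 766 and 711 CPM at D3, 160 and 139 CPM at D4, and 110.3 and 109 CPM at D5 (log2 fold change of D5 over D1 -2.97 ± 0.12 SE, adjusted p = 1.30e-06). Psat7g207920 had 35.1 and 32.6 CPM at D5, against 288 and 303 CPM at D1 (-2.91 ± 0.36, adjusted p = 3.76e-04). Psat7g111360 had 15.1 and 20.7 CPM at D5, against 117 and 119 CPM at D1 (-2.501 ± 0.18, adjusted p = 2.16e-05). The D5 libraries lay below the D1 libraries for each of these genes.

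In JI64, 71 of the 100 genes differed between the seed coats of D4 and D2, of which 53 were higher and 18 lower at D4 (of 27342 features 40.5% differed, 21.4% higher and 19.1% lower, and 66.2% of those with a mean of at least 20 CPM, beside 70 of 98 genes of the list). The embryo list took 2.61% and 2.197% of counts at D4, against 3.097% and 1.31% at D2. Psat4g103960 had 78.2 and 77.1 CPM at D2, 115 and 154 CPM at D3, and 459.5 and 357 CPM at D4, with a log2 fold change of D4 over D2 of 2.58 ± 0.21 SE (adjusted p = 4.67e-05). Psat1g052520 had 724 and 442 CPM at D4, against 126 and 118 CPM at D2 (2.44 ± 0.25, adjusted p = 1.85e-04). Psat7g163680 had 195 and 170.1 CPM at D4, against 48.3 and 51.4 CPM at D2 (2.05 ± 0.13, adjusted p = 1.47e-05). Both D4 libraries lay above both D2 libraries for each of these genes.

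Among those that fell in JI64, Psat3g113480 had 17.5 and 13.9 CPM at D4, against 55.3 and 54.8 CPM at D2 (log2 fold change -1.63 ± 0.17 SE, adjusted p = 2.14e-04). Psat0s8724g0040 had 12.9 and 13.6 CPM at D4, against 36.0 and 38.5 CPM at D2 (-1.32 ± 0.11, adjusted p = 6.74e-05). Psat2g056440 had 40.3 and 43.3 CPM at D4, against 110.0 and 113 CPM at D2 (-1.24 ± 0.09, adjusted p = 2.44e-05). Of the 75 genes called in JI261 and the 71 called in JI64, 53 were in both lists, which is 70.7% of the first and 74.6% of the second. Of the 53, 38 were higher and 5 lower at the later stage in both accessions, and 10 moved in opposite directions. Over all 21415 features tested in both accessions, 6486 were called in both, which is 65.2% of the 9941 called in JI261, while 10097 were called in JI64. Of these shared features 47.6% were higher and 41.8% lower at the later stage in both, and 10.6% moved in opposite directions. The stages compared were not the same in the 2 accessions.

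In the 2017 seed coats of JI92 more genes were lower than higher at the late stage. These libraries took no part in the choice, but other coats of JI92 did. Between D4 and D1, 89 of the 100 genes differed, 29 higher and 60 lower at D4 (of 28789 features 64.6% differed, 29.9% higher and 34.7% lower, and 87.2% of those with a mean of at least 20 CPM, beside 84 of 95 genes of the list). With scaling by total counts 87 differed, 17 higher and 70 lower, and the median log2 fold change of the list moved to -1.07, against -0.66 with TMM scaling, while that of all features moved to -0.57, against -0.15. The D4 libraries are those with embryo list shares of 11.5% and 11.1%, against 0.113% and 0.116% at D1, and the part of this difference in the result was not tested.

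Psat2g056440 had 135.5 and 142 CPM at D1, 66.6 and 72.6 CPM at D2, and 5.12 and 5.26 CPM at D4 in the 2017 set of JI92 (log2 fold change of D4 over D1 -4.32 ± 0.09 SE, adjusted p = 1.22e-07). In the main set of JI92 it had 158 and 127 CPM at D1, 138 and 130.3 CPM at D2, and 41.8 and 41.6 CPM at D4, so the late decline was present in both sets and larger in 2017, a difference that was not tested. Psat0s2417g0120 had 24.2 and 26.6 CPM at D4, against 869 and 837 CPM at D1 (-4.65 ± 0.08, adjusted p = 8.58e-08). Psat7g030400 had 0.0592 and 0.482 CPM at D4, against 19.8 and 18.5 CPM at D1 (-5.67 ± 0.63, adjusted p = 2.44e-04). Psat0s2417g0120 thus fell in late coats of both JI261 and JI92.

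Some genes rose in the 2017 coats of JI92. Psat0s679g0120 had 40.0 and 38.7 CPM at D1, 47.6 and 49.6 CPM at D2, and 260.9 and 268 CPM at D4 (log2 fold change of D4 over D1 3.17 ± 0.07 SE, adjusted p = 1.51e-07). In the main set of JI92 the same gene had 51.6 and 40.8 CPM at D1 and 48.4 and 49.0 CPM at D4, where the stages overlapped. Psat4g159000 had 258 and 275 CPM at D4, against 91.4 and 88.8 CPM at D1 in 2017 (1.98 ± 0.07, adjusted p = 1.07e-06), and 97.0 and 97.5 CPM at D4, against 88.8 and 91.1 CPM at D1 in the main set. Psat0s2061g0080 had 33.2 and 29.2 CPM at D4, against 12.01 and 14.6 CPM at D1 in 2017 (1.65 ± 0.14, adjusted p = 5.59e-05).

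Pairs of genes that lie near each other in the identifier order were compared as a description over 64 seed coat libraries, which share accessions and stages. Psat2g056440 and Psat2g057040, with 8 identifiers between them, had a Pearson correlation of 0.949. Psat6g146040 and Psat6g146080, which are adjacent, had 0.561. Psat1g077840 and Psat1g078400, with 7 identifiers between them, had 0.511, and Psat5g197360 and Psat5g197560, with 3 between them, had 0.276. Psat2g057040 had 315 and 320 CPM at D1 and 12.2 and 14.2 CPM at D4 in the 2017 coats of JI92, a decline like that of Psat2g056440.

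The 6 accessions were compared at D3 and D4 of the main set, where each had seed coats of both stages. Over accessions, 50 of the 100 genes spanned more than 2 on the log2 scale, that is more than 4-fold, against 25.6% of the 9600 genes. JI261 was the lowest accession for 36 genes, against 45.4% of the 9600, and Cameor for 22 genes, against 5.604%. JI64 was the lowest for 9 genes (15.4%), JI1794 for 5 (4.76%), PI358617 for 13 (17.3%) and JI92 for 15 (11.5%). These counts are descriptions, and the choice had used JI1794, PI358617, JI92 and Cameor but neither JI64 nor JI261. The genes of the list had higher levels than the 9600, and the part of level in these counts was not tested. Levels here and in the counts of low genes below were scaled by library totals. At D3 and D4 the TMM factors were 1.555 to 1.65 in Cameor coats and 0.767 to 1.162 in JI261 coats. Relative to TMM scaling, total-count scaling thus places JI261 lower and Cameor higher. The part of scaling in which accession was lowest was not tested.

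**Figure D4:**
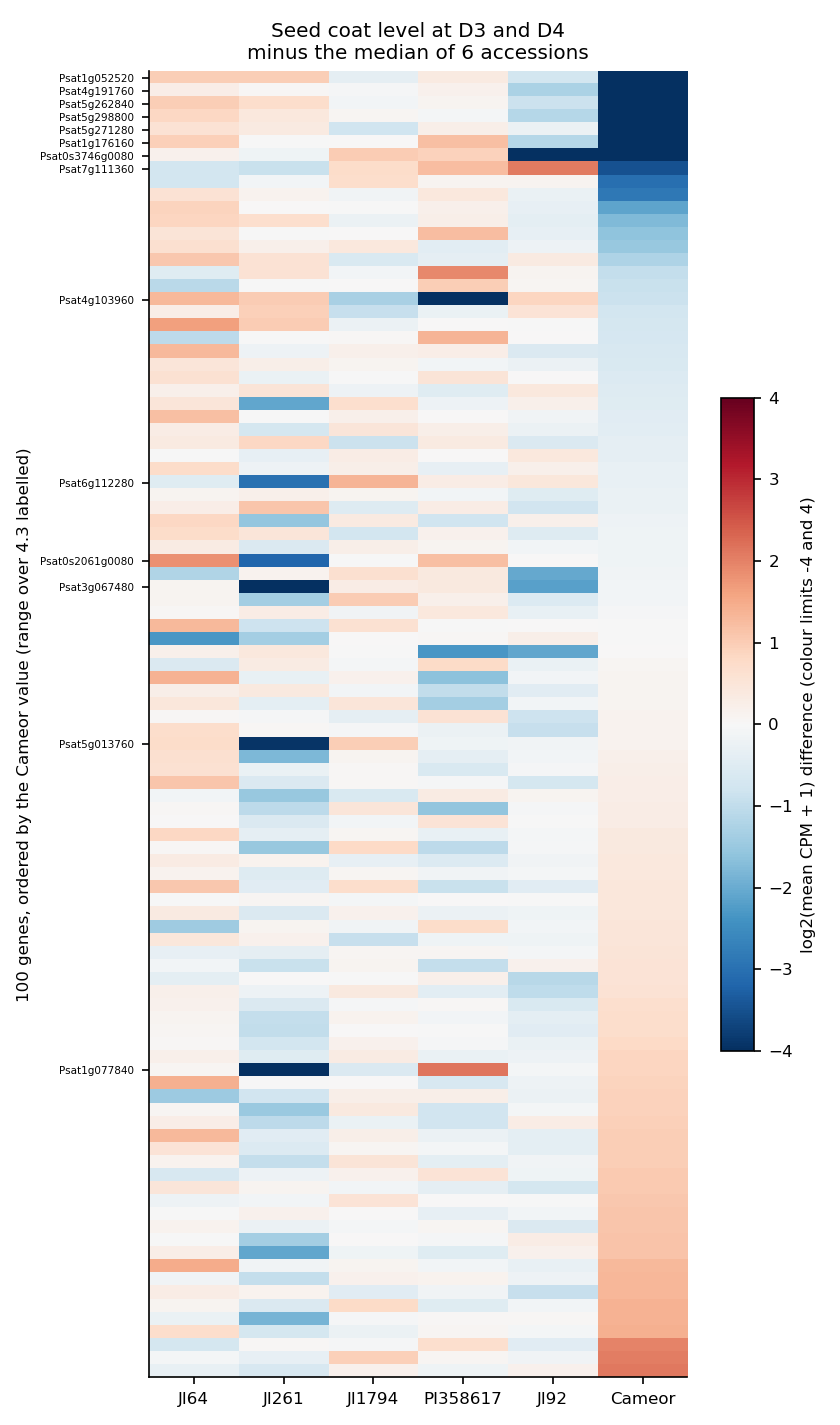
Seed coat level of each of the 100 genes in each accession at D3 and D4, as log2(mean CPM + 1) minus the median of the 6 accessions. Genes run down the page from lowest to highest in Cameor, and names are given where the range over accessions exceeds 4.3. Blue cells lie below the median of the accessions and red cells above it, and the blue block at the top of the Cameor column holds Psat4g191760 and Psat1g052520.

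Several genes of the list stood far below all other accessions in 1 accession, a count made after the values were seen. In Cameor, 9 of the 100 genes were at least 4-fold below the next lowest accession on the log2(CPM + 1) scale, namely Psat1g052520, Psat1g176160, Psat4g005760, Psat4g191760, Psat5g262840, Psat5g271280, Psat5g298800, Psat7g073560 and Psat7g111360. Among the 9600 genes the count was 31 (0.323%), and among the 4994 of these with a mean of at least 20 CPM it was 24 (0.481%). A gap of at least 16-fold was seen for 5 genes of the list in Cameor, against 11 of the 9600. In JI261, 5 genes of the list stood 4-fold below the next accession (0.25% of the 9600), which were Psat0s2061g0080, Psat1g077840, Psat3g067480, Psat5g013760 and Psat6g112280. In PI358617 it was 1 gene, Psat4g103960 (0.271%). In JI64 (0.146%), JI1794 (0.125%) and JI92 (0.0625%) it was 0, near these shares of the 9600. The reads of all accessions were mapped to the genome of Cameor, per the series' design text.

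Psat4g191760 was close to absent in Cameor coats at every stage. Since the coats of Cameor, JI92, JI1794 and PI358617 entered the choice, fold changes among these 4 accessions, or of another accession against their main-set coats, are given below as descriptions, without p-values. Its lowest, median and highest values in the 9 Cameor seed coats were 0.0, 0.0 and 0.111 CPM, with 16 counts in all, and in the 9 coats of JI92 they were 107, 199 and 1031 CPM (log2 fold change of Cameor over JI92 -14.12 ± 0.56 SE). In the 10 coats of JI1794 it ran from 315 to 1026 CPM, in the 10 of PI358617 from 209.5 to 745 CPM, and in the 8 of JI261 from 243 to 1387 CPM. Cameor thus did not overlap with any other accession. In the embryos of all accessions the gene stayed at or under 1.18 CPM.

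Psat1g052520 had 0.0, 0.0 and 0.339 CPM as lowest, median and highest in Cameor coats, against 61.8, 208 and 392 CPM in JI92 coats (log2 fold change -11.98 ± 0.67 SE). It was among the 5 genes of highest mean FPKM in the list in spite of these values. Psat5g262840 had 0.0, 0.0641 and 0.551 CPM in Cameor coats, against 75.4, 94.8 and 243 CPM in JI92 coats (-10.26 ± 0.49). Psat5g298800 ran from 0.0 to 0.746 CPM in Cameor coats, against 34.6 to 82.0 CPM in JI92 coats (-8.02 ± 0.55).

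Psat5g271280 differed from these in that Cameor coats kept a low level. It ran from 2.88 to 6.28 CPM in the 9 Cameor coats, against 212 to 369 CPM in the 9 JI92 coats (log2 fold change -6.57 ± 0.15 SE). In embryos it ran from 0.243 to 1.07 CPM in Cameor, against 16.6 to 27.9 CPM in JI92, a difference in the same direction that was not tested. A low embryo level was not particular to Cameor. At D2 the embryos averaged 0.496 CPM in Cameor, 1.30 CPM in JI64 and 3.08 CPM in PI358617. The coats at D3 and D4 averaged 488 CPM in JI64 and 385 CPM in PI358617. Psat1g176160 averaged 2.86 CPM in Cameor coats at D3 and D4, against 41.8 CPM in JI92 (-4.46 ± 0.24 over all stages).

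In JI261 the lowest genes were others. Psat1g077840 had 0 counts in the 4 coats of JI261 at D3 and D4, against 24.4, 32.3, 26.3 and 24.1 CPM in the 4 coats of JI64. This is at least 2347-fold lower in JI261 when 3 counts over its 4 libraries are taken as the limit (adjusted p = 6.50e-05). With 0 counts in JI261, Psat1g077840 passed the filter on low counts through the JI64 coats alone, which favours a call in this direction. Without the filter, 50 genes of the list differed between these coats, 13 higher and 37 lower in JI261. In the coats of PI358617 the gene ran from 54.1 to 188 CPM, with the highest value of any accession. Psat3g067480 had 0.201, 0.176, 1.61 and 1.43 CPM in JI261 coats at D3 and D4, against 302, 331, 144 and 123 CPM in JI64 coats (log2 fold change -8.02 ± 0.93 SE, adjusted p = 3.83e-04). Psat0s2061g0080 ran from 0.403 to 1.79 CPM in JI261, against 44.7 to 91.4 CPM in JI64 (-5.48 ± 0.46, adjusted p = 1.06e-04).

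Psat4g103960 was low in PI358617, at 0.993, 1.65 and 2.67 CPM as lowest, median and highest over its 10 coats, against 40.1, 124 and 365 CPM over the 18 coats of Cameor and JI92 (log2 fold change -6.20 ± 0.32 SE). In JI261 coats it ran from 123 to 474 CPM, and in JI1794 coats from 28.2 to 147 CPM. Over D3 and D4 a mean under 1 CPM in at least 1 accession was found for 6 of the 100 genes, against 5.54% of the 9600. They were Psat1g052520, Psat4g191760, Psat5g262840 and Psat5g298800 in Cameor, and Psat1g077840 and Psat3g067480 in JI261.

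**Figure D5:**
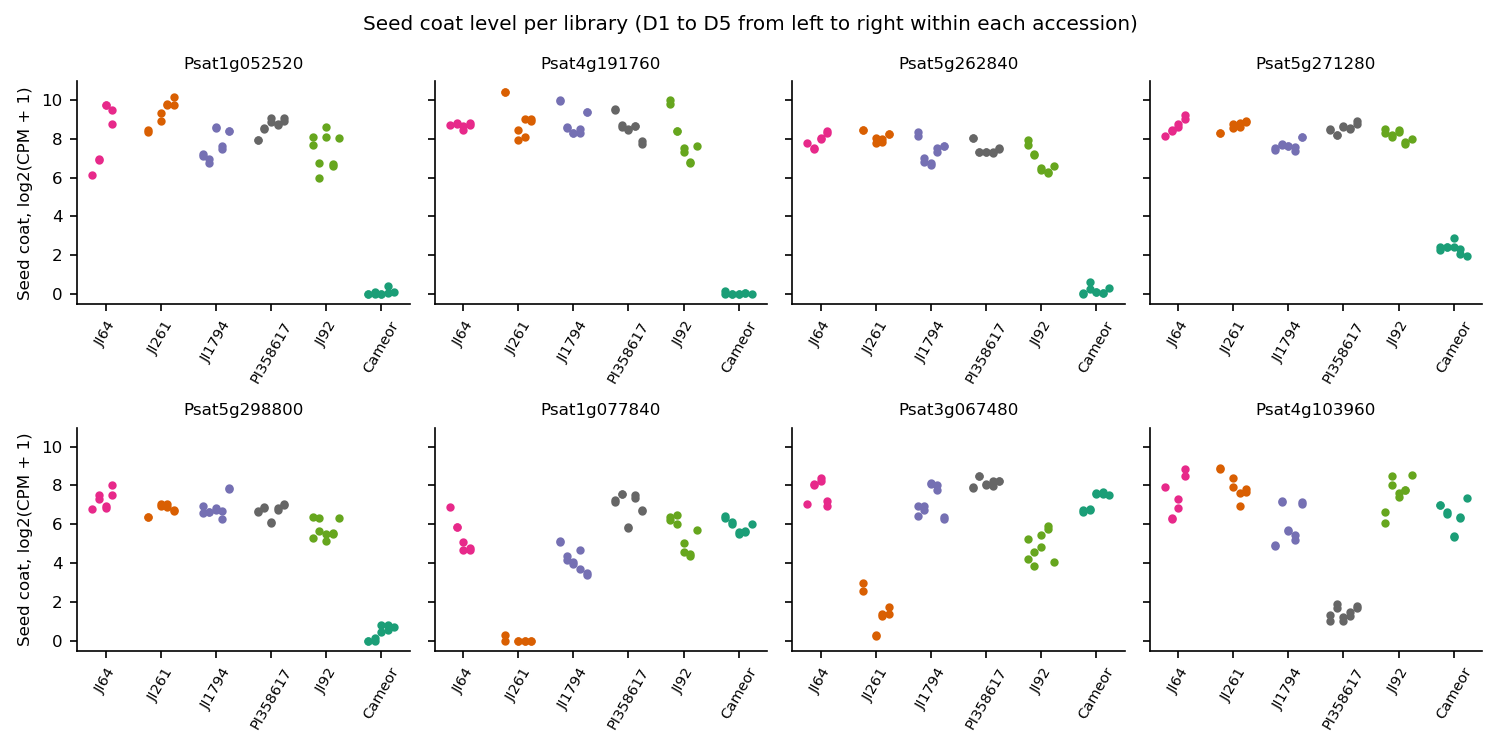
Seed coat level, log2(CPM + 1), of the 8 genes that stood at least 16-fold below the next lowest accession in 1 accession. Points are main-set libraries without the 3 of JI64 set apart, with D1 to D5 from left to right within an accession. Cameor is near 0 for Psat1g052520, Psat4g191760, Psat5g262840 and Psat5g298800, JI261 is near 0 for Psat1g077840 and PI358617 is low for Psat4g103960.

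Psat0s3746g0080 divided the accessions otherwise, being low in both domesticated peas. At D3 and D4 it averaged 693 CPM in JI64, 550.0 CPM in JI261, 1242 CPM in JI1794 and 1160 CPM in PI358617, against 20.3 CPM in JI92 and 36.5 CPM in Cameor. Its values in JI64 coats of the main set at D2 to D4 were 616 CPM at the lowest, 670 CPM at the median and 755 CPM at the highest, against 13.9, 24.1 and 60.3 CPM in JI92 coats (log2 fold change 4.64 ± 0.36 SE). In the 2017 set it ran from 391 to 765 CPM in JI64, against 39.3 to 97.4 CPM in JI92 (3.34 ± 0.13, adjusted p = 3.32e-06). The difference was 4.92 ± 0.25 for JI1794 and 5.55 ± 0.26 for PI358617, each against the mean of Cameor and JI92. In none of these comparisons did the libraries overlap. The comparisons of JI1794 and PI358617 share their Cameor and JI92 libraries, and that of JI64 in the main set shares JI92 libraries with them.

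JI261 and JI64, both wild and both outside the choice, differed in the seed coat at D3 and D4 for 49 of the 100 genes, 12 higher and 37 lower in JI261, against 53.8% of 22649 features (25.1% higher and 28.7% lower). Of features with a mean of at least 20 CPM 59.9% differed, beside 47 of 98 genes of the list. The median log2 fold change was -0.31, beside -0.16 over all features. With total-count scaling the medians moved to -0.64 and -0.49. The embryo list took 0.240% to 5.66% of counts in the JI261 coats, against 2.197% to 2.797% in those of JI64. The genes with the largest rise in JI261 were Psat3g113480, with 48.3 to 82.0 CPM in JI261 and 13.9 to 31.9 CPM in JI64 (1.99 ± 0.21 SE, adjusted p = 2.88e-04), Psat7g030400 (1.77 ± 0.37, adjusted p = 0.00462) and Psat0s8724g0040 (1.47 ± 0.17, adjusted p = 3.30e-04).

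JI64 against JI92 could be compared in 2 sets of libraries that share none. In the main set at D2 to D4, 59 of the 100 genes differed, 40 higher and 19 lower in JI64 (of 24205 features 51.4% differed, 24.2% higher and 27.2% lower, and of those averaging at least 20 CPM 51.9%, beside 58 of 98 genes of the list). With total-count scaling 58 differed, 46 higher and 12 lower. In the 2017 set at D1, D2 and D4, 38 differed, 32 higher and 6 lower in JI64 (of 27321 features 39.6% differed, 23.1% higher and 16.5% lower, and of those averaging at least 20 CPM 31.8%, beside 38 of 97 genes of the list). There, 29 differed with total-count scaling, 23 higher and 6 lower, and 48 with DESeq2, 41 higher and 7 lower. The main-set libraries of JI92 entered the choice and those of JI64 did not, which favours JI92 in the first comparison, so that its counts are a description. The 2017 coats of JI92 did not enter the choice but belong to an accession that did. The choice may therefore favour JI92 in the second comparison too. The embryo list took 2.61% and 2.197% of counts in the JI64 coats at D4, against 13.6% and 13.5% in those of JI92 in the main set, and 2.26% and 2.35%, against 11.5% and 11.1%, in 2017. When either JI92 coat at D4 was left out, 47 genes differed in the main set (31 higher and 16 lower in JI64), and 28 in 2017 (22 higher and 6 lower). The part of embryo RNA in these counts was not tested. A total of 26 genes were called in both sets, 44.1% of the first list and 68.4% of the second, of which 17 were higher and 6 lower in JI64 in both. Over all 23691 features tested in both sets the same shares were 51.0% and 70.4%, and of the shared features 50.5% were higher and 42.4% lower in JI64 in both.

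Beside Psat0s3746g0080, the genes with the largest rise without overlap in JI64 in both sets were Psat3g067480 and Psat0ss888g0040. Psat3g067480 ran from 123 to 331 CPM in JI64, against 13.4 to 58.4 CPM in JI92 in the main set (log2 fold change 2.68 ± 0.47 SE), and from 101 to 308 CPM, against 16.4 to 33.5 CPM, in 2017 (2.93 ± 0.16, adjusted p = 1.95e-05). Psat0ss888g0040 ran from 144 to 329 CPM in JI64, against 38.3 to 60.5 CPM in JI92 in the main set (1.91 ± 0.21), and from 118 to 144 CPM, against 7.91 to 60.7 CPM, in 2017 (2.48 ± 0.49, adjusted p = 0.00397). The libraries of the accessions did not overlap in either set.

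Psat7g111360 was lower in JI64, with 19.4 to 66.4 CPM, against 150.1 to 447 CPM in JI92 in the main set (log2 fold change -3.06 ± 0.17 SE), and with 14.0 to 110 CPM, against 230.0 to 961 CPM, in 2017 (-3.31 ± 0.69, adjusted p = 0.00485). Psat1g089880 was lower in the main set, with 15.9 to 39.7 CPM in JI64, against 87.0 to 242 CPM in JI92 (-2.73 ± 0.10), as was Psat2g157360 by a smaller amount (-0.52 ± 0.13). Lower in JI64 in the 2017 set were also Psat6g112280, with 43.7 to 105 CPM in JI64 and 152 to 232 CPM in JI92 (-1.23 ± 0.19, adjusted p = 0.0012), and Psat6g197920 (-0.59 ± 0.16, adjusted p = 0.0192). The call of Psat6g197920 was lost without either D2 library of JI64, with adjusted p of 0.056 and 0.0517.

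The 4 accessions that entered the choice were also set against each other. The choice averaged over their 38 seed coats, so the counts below describe the genes chosen in these libraries and support nothing further. In all, 57 of the 100 genes differed between the coats of JI1794 and the mean of Cameor and JI92, 33 higher and 24 lower in JI1794 (of 29107 features 46.2% differed, 25.1% higher and 21.1% lower). With total-count scaling 58 differed, 23 higher and 35 lower, so the prevailing direction depended on the scaling. Between PI358617 and the same mean 65 differed, 49 higher and 16 lower in PI358617 (of features 61.5%, 31.2% higher and 30.3% lower), or 36 higher and 29 lower with total-count scaling. With limma on log2(FPKM + 1) the counts of genes higher and lower were 20 and 43 for JI1794, 32 and 34 for PI358617 and 48 and 18 for Cameor against JI92, so the prevailing direction for PI358617 also depended on the setting. Between Cameor and JI92, 62 differed, 30 higher and 32 lower in Cameor (of features 60.3%, 29.3% higher and 31.0% lower), or 47 higher and 21 lower with total-count scaling. With total-count scaling the median log2 fold change of all features was -0.15 for JI1794, -0.30 for PI358617 and 0.37 for Cameor, against 0.00, -0.05 and -0.03 with TMM scaling. Among features with a mean of at least 20 CPM, the shares called were 47.9% for JI1794, 63.8% for PI358617 and 63.1% for Cameor.

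The libraries did not overlap for 3 of the 100 genes in the JI1794 comparison, 6 in that of PI358617 and 32 in that of Cameor, against 4.41%, 8.1% and 21.7% of the features. Psat3g120560 was lower in JI1794, with 18.5, 26.5 and 33.9 CPM as lowest, median and highest, against 40.6, 69.1 and 92.47 CPM in Cameor and JI92 (log2 fold change -1.25 ± 0.11 SE). Psat7g083080 had 12.2, 17.5 and 31.2 CPM in JI1794, against 36.8, 43.0 and 63.1 CPM in Cameor and JI92 (-1.11 ± 0.13). In PI358617, Psat1g176160 had 141, 180.4 and 255 CPM, against 2.08, 20.4 and 64.0 CPM in Cameor and JI92 (4.15 ± 0.18). Psat3g067480 had 237, 286 and 358 CPM in PI358617, against 13.4, 77.6 and 199 CPM in Cameor and JI92 (2.43 ± 0.18). Psat6g126240 was lower in PI358617, with 42.6, 85.2 and 140.2 CPM, against 152, 248 and 367 CPM in Cameor and JI92 (-1.32 ± 0.16).

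Higher in Cameor than in JI92 was Psat0s3920g0080, which had 99.5, 202 and 224 CPM as lowest, median and highest in Cameor coats, against 11.6, 35.3 and 77.1 CPM in JI92 coats (log2 fold change 2.08 ± 0.33 SE). Psat4g046120 had 225, 255 and 337 CPM in Cameor, against 13.3, 80.9 and 109 CPM in JI92 (1.84 ± 0.22). Psat3g067480 had 96.9, 179.7 and 199 CPM in Cameor, against 13.4, 27.6 and 58.4 CPM in JI92 (1.81 ± 0.23). Cameor was above every JI92 library for each of these genes.

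For the question of the series, counts of the seed coats at D1, D3, D4 and D5 were summed per accession, and the 3 wild accessions were compared with the 2 domesticated ones. With accessions as replicates, edgeR called 0 of the 100 genes and 0 of 35034 features (0.0%). At an unadjusted p under 0.05, 7 of the 100 genes and 1437 of the features (4.1%) differed. The median log2 fold change of the list was -0.01, beside 0.01 over all features, and it was 0.25 without the 3 JI64 libraries set apart, where again 0 features were called. DESeq2 called 1 of the 100 genes, Psat0s3746g0080, and 2670 of 43025 features (6.21%), while limma on FPKM called 0 of the 100 genes and 1 feature. With single libraries taken as replicates, 10 of the 100 genes were called, 4 higher and 6 lower in wild coats, against 21.8% of 24595 features, but libraries of an accession are then counted as independent.

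Psat0s3746g0080 had a log2 fold change of wild over domesticated coats of 4.41 ± 0.49 SE in edgeR and of 4.39 ± 0.53 in DESeq2. Its mean CPM was higher in 3 of 3 wild accessions than in either domesticated one. Both domesticated accessions but only 1 of the 3 wild ones entered the choice of the genes, so these values and the counts of the comparison are descriptions. Psat4g191760, Psat1g052520 and Psat5g262840, which were near absent in Cameor, were present in JI92, at 139.7, 216 and 81.0 CPM over D3 and D4.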

How the data were processed

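RNA was sequenced from seed coats and embryos. The authors deposited whole-number counts per feature and FPKM values, and the counts were used as deposited. HISAT2 2.1.0 and StringTie 2.1.0 are named, without roles, per the submitters' processing notes, and per the series' design text the reads were mapped to the Cameor genome. The counting rule, strandedness and treatment of reads with several matches are unknown (not given in the sources used here). In the deposited tables, 10 identifiers were repeated. Library totals of 56.97 to 104.01 M counts set the precision of low values.

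The genes, lists and tests were chosen with earlier results of these data known. The test for counts, in R 4.3.3, was that of edgeR 4.0.16 (quasi-likelihood with an F statistic, TMM scaling, filterByExpr, trended and robust dispersion) on all features, with Benjamini-Hochberg adjustment and a threshold of 0.05. Standard errors are the log2 fold change divided by the square root of F. Printed CPM use library totals, while fold changes use TMM scaling. Alternatives were DESeq2 1.42.0, limma 3.58.1 with a pseudocount of 1 or 0.1 on the log2 FPKM scale, other scaling and filters, left-out libraries and replicate number as a term. The edgeR fits of JI261 tissues and of JI261 coats at D5 against D1 were tried on simulated data with rises only. The other comparisons were not simulated. Scaling by total counts, the list of 50 embryo genes (the planned list held 0 genes) and the 4-fold and 16-fold counts were chosen after the data were seen.

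Genes were named by rule: the 5 first and 3 last in the ranking and the first 3 outside it, the 5 highest in FPKM, those under 1 CPM in an accession, the 3 highest in D1 embryos, neighbours in identifier order, and in each test up to 3 genes per direction with the largest change among those called without overlap. Genes standing low in 1 accession were named after their values were seen. Replicate numbers were not used to pair libraries in the main fits. Correlations of the deviations of same-numbered seed coats and embryos ran from -0.087 to 0.073. Such values cannot show whether same-numbered libraries came from the same plants.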

Additional observations from a re-analysis of the deposited data

How the results depend on the processing

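Among the counts of called genes, those of the JI64 embryo at D1 against D2 and of wild against domesticated coats moved by more than 1.5 times. The JI64 embryo count was 14, and it was 35 with limma on log2(FPKM + 1), 32 on log2(FPKM + 0.1) and 3 to 9 when each library was left out. For wild against domesticated coats the count was 0 with edgeR, 1 with DESeq2 and 10 with single libraries as replicates. The causes were not tested. When single libraries were left out, the counts ran from 98 to 99 for the JI261 tissues, 100 to 100 for the JI64 tissues, 63 to 64 for JI261 stages, 65 to 69 for JI64 stages, 79 to 85 for JI92 stages, 44 to 53 for JI261 against JI64, 47 to 61 and 28 to 46 for JI64 against JI92 in the main and 2017 sets, 53 to 58 for JI1794, 61 to 67 for PI358617 and 61 to 63 for Cameor. With replicate number as a block the counts were 98 and 100 for the tissues of JI261 and JI64, 75, 75 and 87 for the stages of JI261, JI64 and JI92, 10 for JI64 embryos, 46 for JI261 against JI64, 55 and 35 for JI64 against JI92, and 57, 65 and 62 for JI1794, PI358617 and Cameor. The libraries share only a number, and the labels do not say whether the block is a pairing. No paired analysis was possible for wild against domesticated coats because each accession gave 1 sum. Of the alternative values of named genes, 1300 kept direction and side of the threshold, 18 kept direction only and 0 reversed. Depth limits values in embryos, where many genes had few counts.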
